A study of Homo sapiens with 6 samples.

Results

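The nuclear pore and transport genes are 33 genes, of 18597 in the deposited tables, that encode the nucleoporins building the nuclear pore and the receptors NXF1, XPO1 and KPNB1 that carry cargo through it. They were chosen by gene name for their role, from gene groups proposed with the siDUB1 and siControl values of these libraries already known. Differences between siDUB1 and siControl are therefore given for them as a description, with no p-value printed and nothing read from their counts. A member is said to be called where its adjusted p in the fit over all genes was under 0.05. For the members such a call is part of the description and not a test, since their values were known when they were chosen. All 33 were found through their NCBI Gene ID. Of these, 32 reached 1 FPKM (fragments mapped to a gene, scaled by its length and by the size of the library) in at least 3 of the 6 libraries and were tested. NUP210, a glycoprotein of the pore membrane, did not, at 0.08, 0.06 and 0.05 FPKM in siDUB1 cells and 0.09, 0.05 and 0.06 FPKM in siControl cells.

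RNA was sequenced from AGS cells, an established human gastric adenocarcinoma line, after transfection with siDUB1 (3 libraries) or with siControl (3 libraries). All libraries come from this single line, and the labels name no separate cultures, so p-values measure only the spread between these libraries, which may be technical. DUB1 is a synonym of USP36, a nucleolar deubiquitinase. USP36 (chr17:78787381-78841439, GRCh38) had 4.11, 4.75 and 2.59 FPKM in siDUB1 cells and 9.16, 6.74 and 7.25 FPKM in siControl cells. The groups did not overlap, and USP36 fell by 0.87 on the log2(FPKM + 1) scale (SE 0.21, limma, adjusted p = 0.0432). The call was lost without siDUB1 replicate 1 (limma adjusted p = 0.0878) or siDUB1 replicate 2 (limma adjusted p = 0.0509), and without any of the siControl libraries the limma adjusted p was 0.125 to 0.179, while it was 1.97e-04 without siDUB1 replicate 3. The epithelial keratin gene KRT8 stood at 2848 to 4323 FPKM in siDUB1 cells and at 3601 to 3785 FPKM in siControl cells, while CDH1, the epithelial cadherin, was at 0.85 to 2.21 FPKM in siDUB1 cells and 3.08 to 3.22 FPKM in siControl cells. The leukocyte marker PTPRC and the endothelial marker PECAM1 did not exceed 0.37 FPKM in any library. Of the fibroblast markers, COL1A2 did not exceed 0.08 FPKM and VIM ran from 5.79 to 7.21 FPKM over all libraries, but COL1A1 was at 8.20 to 11.1 FPKM in siDUB1 cells and at 18.7 to 19.6 FPKM in siControl cells, and its part in the results was not tested. In bulk RNA, fewer cells of a kind and less RNA per cell cannot be told apart.

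The nuclear pore is the channel through which proteins, mRNA and ribosomal subunits cross the nuclear envelope. A Y-shaped complex forms its outer rings, an inner ring holds it in the envelope, and nucleoporins rich in phenylalanine-glycine repeats fill the channel and form the barrier. Receptors of the importin and exportin family carry proteins and some RNAs through it under control of the GTPase Ran, whereas bulk mRNA leaves with NXF1 and its partner NXT1. Proliferating epithelial and tumour cells build new pores in every cell cycle.

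Before the members are described, 1 library needs to be set apart. siDUB1 replicate 3 agreed less with the other siDUB1 libraries (Pearson r of 0.964 and 0.960 over genes) than these did with each other (0.998). Its departure, meaning its log2(FPKM + 1) value minus the mean of the other siDUB1 libraries, moved with transcript GC content. When all genes were ranked by GC and put in 10 bins, the median departure was -0.86 in the lowest bin and 0.40 in the highest. The 32 tested members had a median GC content of 44.2%, against 50.3% over all genes tested, and their median departure in this library was -0.77, against -0.25 over all genes tested. The departure was below 0 in 26 members and above 0 in 6, it was under -1 in 12, and it ran from -1.73 for NUP58 to 0.57 for AAAS. siDUB1 replicates 1 and 2 differed by no more than -0.14 to 0.19 over the same members. The 21 members below the median GC of all genes had a median departure of -0.93, and the 11 at or above it had -0.08. Single members did not all lie near the median of their GC bin. POM121 (57.7% GC), NUP62 (57.2%) and AAAS (57.6%) departed by -1.03, -0.41 and 0.57 in a bin with a median of 0.16. NUP50 (51.0%) and GLE1 (50.8%) departed by -1.035 and -0.68 in a bin with a median of -0.17. Each change below is therefore given with all 6 libraries and without siDUB1 replicate 3. What made this library differ was not tested.

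**Figure D1:**
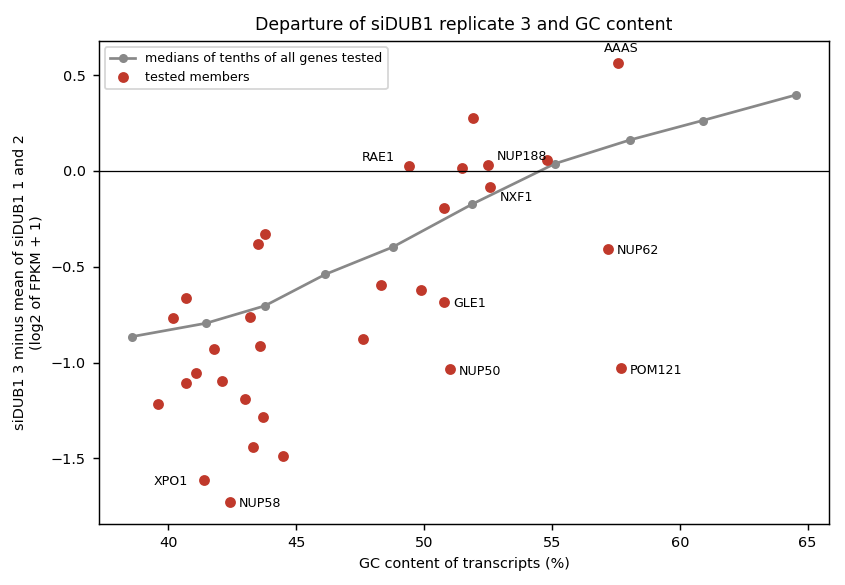
Departure of siDUB1 replicate 3 from the mean of siDUB1 replicates 1 and 2, in log2(FPKM + 1), against transcript GC content in percent, for all tested genes and for the 32 tested members. Of the 32 members, 21 lie below the median GC of all genes, and 26, on both sides of it, fall below 0.

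The pore genes were abundant in these cells. In siControl cells 27 of the 32 tested members stood above the median of all genes tested, and the median member was at 22.7 FPKM against 11.9 FPKM for the median gene. SEC13 (91.6 FPKM), NUP62 (90.8 FPKM), RAE1 (73.6 FPKM), KPNB1 (60.7 FPKM) and XPO1 (60.0 FPKM) led the order of siControl means. SEC13 and NUP62 overlapped, as did KPNB1 and XPO1. At the low end were NUP155 (9.29 FPKM), GLE1 (9.70 FPKM), NUP107 (10.1 FPKM), RANBP2 (10.3 FPKM) and NUP214 (11.8 FPKM), where each overlapped its neighbour in this order except NUP214, whose siControl libraries all lay above those of RANBP2. The median of the members by library was 20.5, 19.8 and 10.8 FPKM in siDUB1 replicates 1, 2 and 3, against 23.1, 21.1 and 22.8 FPKM in siControl replicates 1, 2 and 3. Together they made up 0.146%, 0.152% and 0.0935% of all FPKM in siDUB1 cells and 0.173%, 0.159% and 0.168% in siControl cells.

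**Figure D2:**
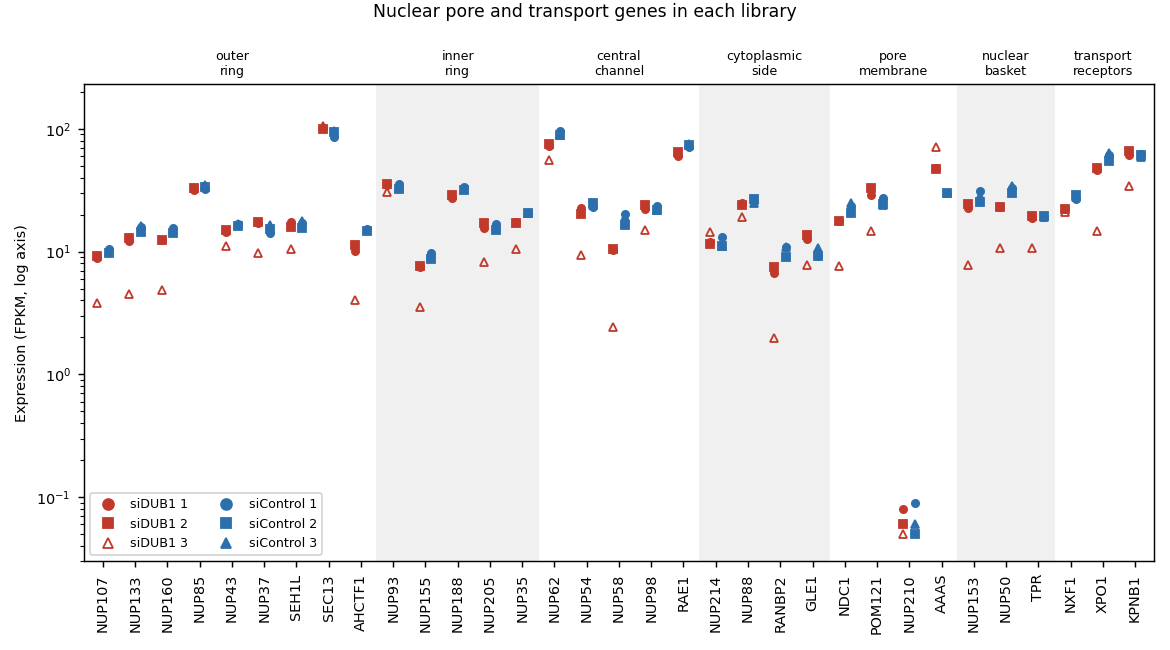
FPKM of the 33 nuclear pore and transport genes in every library on a log axis, grouped by role in the pore, with siDUB1 libraries left of siControl libraries. siDUB1 replicate 3 is the lowest library for 26 of the 32 tested members.

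With all 6 libraries, 28 of the 32 tested members had a negative log2 change, as did 6157 of the 10994 genes tested. The median change of the members was -0.28, against -0.06 over all genes tested. AAAS was called higher and NXF1 was called lower at an adjusted p under 0.05, which is 1 member in each direction, where 8.13% of all genes tested were called higher and 5.92% lower. The siDUB1 and siControl libraries did not overlap for 2 members that were higher, AAAS and SEC13, and for 19 that were lower, where 24.8% and 28.5% of all genes tested did not overlap in those directions. Without siDUB1 replicate 3 the spread within siDUB1 cells was much smaller. In that fit 5 members were called higher and 16 lower, where 31.7% of all genes tested were called higher and 25.6% lower. The median member then changed by -0.15, against 0.02 over all genes tested. After a further correction for transcript GC content and length, 5 members were called higher and 14 lower, where 30.3% and 28.1% of all genes with these annotations were. This is named the GC correction below, though it covers length as well. Of the 16 called lower without siDUB1 replicate 3, 13 were also called lower after this correction, and NUP160, NUP155 and NUP153 were not. NUP85 was called lower and NUP205 higher only after it, and SEC13 was called higher only before it. Over 8 ways of scaling the values or choosing libraries, 19 members had a negative change in all, SEC13, GLE1 and AAAS had a positive change in all, and the other 10 changed sign in at least 1. These 8 reuse the same libraries, so their agreement is not repeated evidence. The matching count over all genes was not taken, so nothing is read from the 19.

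**Figure D3:**
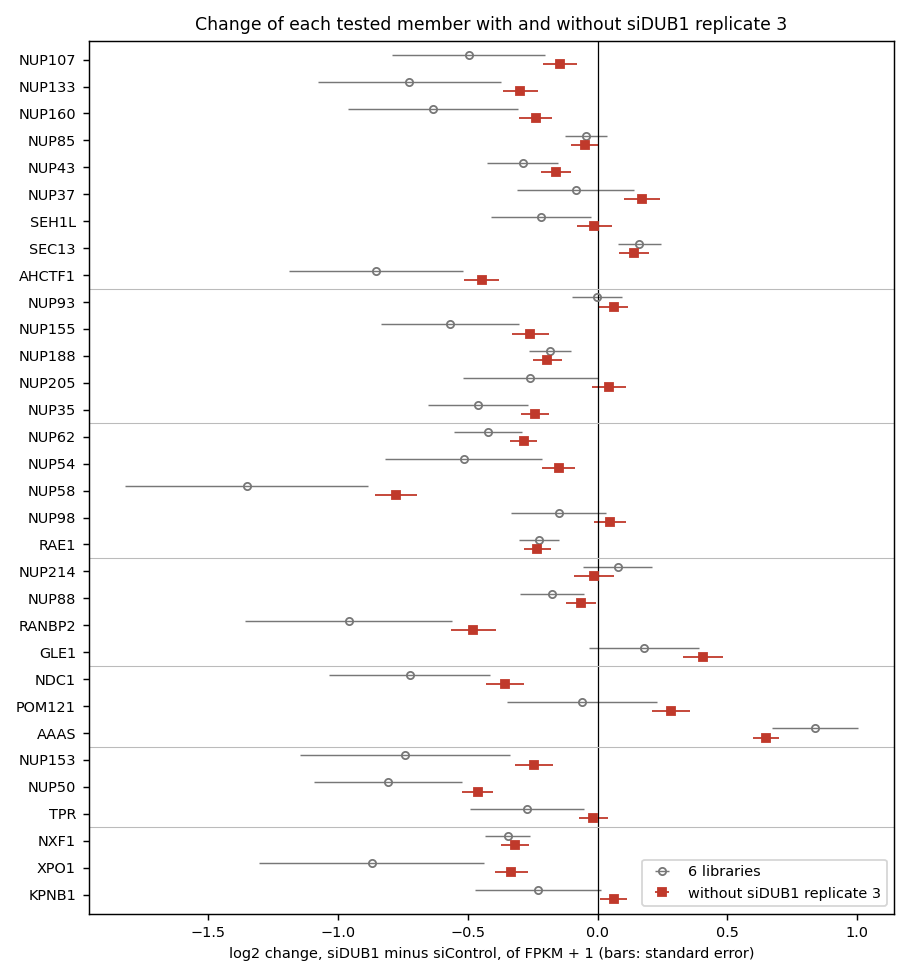
Log2 change of each tested member, siDUB1 minus siControl, on the log2(FPKM + 1) scale by role, with all 6 libraries and without siDUB1 replicate 3, with bars of 1 standard error. NUP58 lies lowest and AAAS highest in both fits, and the bars are wider with all 6 libraries.

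The Y complex, the scaffold of the outer rings, gave 9 tested members. AHCTF1 (also called ELYS), which brings the Y complex to chromatin when the envelope reforms after mitosis, had 10.1, 11.3 and 4.04 FPKM in siDUB1 cells and 15.3, 14.7 and 15.0 FPKM in siControl cells. All siDUB1 libraries lay below all siControl libraries. Its log2 change was -0.85 (SE 0.34) with 6 libraries, -0.45 (SE 0.07) without siDUB1 replicate 3 and -0.26 after the further GC correction. The scaffold genes NUP133, NUP160 and NUP43 were also called lower without siDUB1 replicate 3, at -0.30, -0.24 and -0.16. After the GC correction these were -0.18, -0.12 and -0.17, and NUP160 was no longer called. NUP107, the partner of NUP133 in the stem of the Y, changed by -0.50 with 6 libraries and by -0.14 without that library, and was not called in either fit. SEC13, which also serves in COPII vesicle coats, had 102, 99.6 and 105 FPKM in siDUB1 cells and 85.1, 93.9 and 95.8 FPKM in siControl cells. It was higher in all 3 siDUB1 libraries, by 0.16 (SE 0.08) with 6 libraries and 0.14 (SE 0.06) without siDUB1 replicate 3, when it was called. After the GC correction the change was 0.06 with 6 libraries and 0.05 without siDUB1 replicate 3, with no call in either fit. NUP37 was called higher without that library (0.17) but had a change of -0.08 with it. NUP85, a further scaffold member, and SEH1L, which like SEC13 also belongs to the GATOR complex of nutrient sensing, changed by -0.05 and -0.01 without it.

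The inner ring, which anchors the channel in the envelope, gave 5 tested members. NUP155 had 7.53, 7.66 and 3.51 FPKM in siDUB1 cells and 9.68, 8.76 and 9.43 FPKM in siControl cells, a change of -0.57 (SE 0.27) with 6 libraries and -0.26 (SE 0.07) without siDUB1 replicate 3. After the GC correction the change without that library was -0.13, and the call was lost. NUP35, which binds the membrane, had 17.3, 17.0 and 10.5 FPKM in siDUB1 cells and 20.4 FPKM in each of the 3 siControl libraries. Its change was -0.46 (SE 0.19) with 6 libraries and -0.24 (SE 0.06) without siDUB1 replicate 3. In both genes the siDUB1 libraries were all below the siControl libraries. NUP188, a large scaffold protein, showed no departure of siDUB1 replicate 3, with 27.3, 28.9 and 28.7 FPKM in siDUB1 cells against 33.3, 31.6 and 32.0 FPKM in siControl cells. Its change was -0.18 (SE 0.08), but -0.02 after the GC correction with all 6 libraries and -0.16 after it without siDUB1 replicate 3. NUP93, the hub that the inner ring assembles on, and NUP205 changed by -0.003 and -0.26 with 6 libraries and by 0.06 and 0.04 without siDUB1 replicate 3, and their groups overlapped.

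The central channel, whose repeat-bearing proteins form the permeability barrier, gave 5 tested members and the largest change of any member. NUP58 (Gene ID 9818, chr13:25301625-25349800, plus strand), which sits in the channel in a complex with NUP54 and NUP62, had 10.3, 10.5 and 2.45 FPKM in siDUB1 cells and 20.2, 16.4 and 19.3 FPKM in siControl cells. It averaged 7.76 ± 4.60 FPKM in siDUB1 cells and 18.6 ± 1.98 FPKM in siControl cells (SD, n = 3 each), a ratio of 0.417, or 0.560 without siDUB1 replicate 3. The log2 change was -1.35 (SE 0.47) with 6 libraries, -0.78 (SE 0.08) without that library and -0.70 after the GC correction. NUP62 had 73.0, 75.6 and 55.8 FPKM in siDUB1 cells and 95.1, 88.8 and 88.6 FPKM in siControl cells. Its change was -0.42 (SE 0.13), or -0.28 (SE 0.05) without siDUB1 replicate 3. NUP54, the other partner, changed by -0.52 with 6 libraries and by -0.15 without that library, and was called in neither. The libraries of the groups did not overlap for any of these 3 partners, where 28.5% of all genes tested were lower without overlap. For NUP54 the nearest libraries were close, at 22.49 FPKM in siDUB1 replicate 1 and 22.86 FPKM in siControl replicate 1. RAE1, an mRNA export factor that binds NUP98, had 60.2, 64.8 and 63.6 FPKM in siDUB1 cells and 71.1, 74.1 and 75.6 FPKM in siControl cells, a change of -0.22 (SE 0.08). NUP98, whose gene also encodes the Y complex protein NUP96 as part of the same precursor, changed by -0.15 with 6 libraries and by 0.05 without siDUB1 replicate 3.

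On the cytoplasmic side, where export complexes are taken apart, 4 members were tested. RANBP2 (also called NUP358), the SUMO ligase of the cytoplasmic filaments, had 6.71, 7.44 and 1.97 FPKM in siDUB1 cells and 10.99, 8.97 and 10.86 FPKM in siControl cells. The groups did not overlap, and the change was -0.96 (SE 0.40), or -0.48 (SE 0.09) without siDUB1 replicate 3. RANBP2 has near-identical copies, the RGPD genes, and it is not known here how reads were shared between them. One of these copies, RGPD5, stood at 1.45 ± 0.615 FPKM in siDUB1 cells and 2.90 ± 0.863 FPKM in siControl cells (SD, n = 3 each). GLE1, which activates the helicase that strips export factors from mRNA, went the other way in siDUB1 replicates 1 and 2. It had 12.7, 13.6 and 7.81 FPKM in siDUB1 cells and 9.18, 9.24 and 10.7 FPKM in siControl cells, so that siDUB1 replicates 1 and 2 lay above every siControl library and siDUB1 replicate 3 below. The change was 0.18 (SE 0.21) with 6 libraries and 0.41 (SE 0.08) without siDUB1 replicate 3. NUP214 and NUP88, which form a docking site for XPO1, changed by -0.02 and -0.06 without that library.

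The pore membrane class holds the proteins that span or dock at the envelope, with 3 of 4 members tested. AAAS (also called ALADIN; Gene ID 8086, chr12:53307460-53321610, minus strand), a WD-repeat protein tethered by NDC1, had 48.1, 47.0 and 70.8 FPKM in siDUB1 cells and 29.8, 30.0 and 30.1 FPKM in siControl cells. All siDUB1 libraries lay above all siControl libraries, and siDUB1 replicate 3 was the highest. It averaged 55.3 ± 13.5 FPKM in siDUB1 cells and 30.0 ± 0.164 FPKM in siControl cells (SD, n = 3 each), a ratio of 1.84, or 1.59 without siDUB1 replicate 3. The log2 change was 0.84 (SE 0.17) with 6 libraries, 0.65 (SE 0.05) without that library and 0.56 after the GC correction. With all siDUB1 libraries the call was lost when any 1 siControl library was left out (0.83 to 0.84) or siDUB1 replicate 1 (0.92), and after scaling by size factors. NDC1, the membrane protein that holds AAAS in the pore, went the opposite way. It had 17.6, 17.7 and 7.66 FPKM in siDUB1 cells against 23.4, 20.6 and 24.8 FPKM in siControl cells, with no overlap. Its change was -0.72 with 6 libraries, -0.36 without siDUB1 replicate 3 and -0.20 after the GC correction. POM121 had 28.9, 33.1 and 14.6 FPKM in siDUB1 cells and 27.4, 24.5 and 24.0 FPKM in siControl cells. Its change was -0.06 with 6 libraries and 0.28 without siDUB1 replicate 3, so its direction turned on that library. The near-identical POM121C, between which and POM121 the sharing of reads is also not known, averaged 18.9 ± 8.09 FPKM in siDUB1 cells and 17.3 ± 1.78 FPKM in siControl cells (SD, n = 3 each).

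The nuclear basket, which faces the chromatin, gave 3 tested members, and its summed level was 64.4, 66.8 and 29.2 FPKM in siDUB1 cells against 82.7, 74.8 and 81.3 FPKM in siControl cells. NUP50 (Gene ID 10762, chr22:45163925-45188017, plus strand), a mobile nucleoporin that helps to release cargo from importins, had 23.0, 23.2 and 10.8 FPKM in siDUB1 cells and 32.7, 30.1 and 33.9 FPKM in siControl cells. The groups were well apart, with a change of -0.81 (SE 0.29) with 6 libraries, -0.46 (SE 0.06) without siDUB1 replicate 3 and -0.55 after the GC correction. That correction used a length of 579 nt for NUP50, the median over its annotated transcripts, and whether this length applies here was not tested. NUP153, which binds the basket to the lamina, changed by -0.74 with 6 libraries and by -0.24 without siDUB1 replicate 3, where it was called, and by -0.13 after the GC correction, where it was not. TPR, the coiled-coil scaffold of the basket, changed by -0.27 with all 6 libraries but by only -0.02 without siDUB1 replicate 3, and its groups overlapped.

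Among the receptors, NXF1 (Gene ID 10482, chr11:62792130-62805440, minus strand), the carrier of bulk mRNA, had 22.4, 22.0 and 20.9 FPKM in siDUB1 cells and 26.92, 28.96 and 27.91 FPKM in siControl cells. It averaged 21.8 ± 0.764 FPKM in siDUB1 cells and 27.9 ± 1.02 FPKM in siControl cells (SD, n = 3 each), a ratio of 0.779. siDUB1 replicate 3 did not stand apart for this gene, and the log2 change was -0.35 (SE 0.09) with 6 libraries, -0.32 (SE 0.06) without that library and -0.40 after the GC correction. With all genes scaled by size factors (-0.28), with no filter on low values, or with siDUB1 replicate 1 or 2 or any 1 siControl library left out (-0.37 to -0.32), it was no longer called. XPO1 (CRM1), the main protein export receptor, had 46.5, 48.3 and 14.8 FPKM in siDUB1 cells and 61.7, 54.6 and 63.8 FPKM in siControl cells. The groups did not overlap, but most of the change of -0.87 (SE 0.43) came with siDUB1 replicate 3, and it was -0.33 (SE 0.06) without it. KPNB1 (importin beta), the main import receptor, had 61.3, 65.7 and 34.1 FPKM in siDUB1 cells against 62.5, 60.8 and 58.9 FPKM in siControl cells. Its change was -0.23 with 6 libraries and 0.06 without siDUB1 replicate 3, and it was not called in either fit.

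For 5 members siDUB1 replicate 3 lay within 0.1 log2 units of the mean of siDUB1 replicates 1 and 2. They were NXF1, RAE1 and NUP188, whose siDUB1 libraries all lay below the siControl libraries, SEC13, whose siDUB1 libraries all lay above them, and NUP85, whose groups overlapped. The change without that library was -0.32 for NXF1, -0.23 for RAE1, -0.19 for NUP188 and 0.14 for SEC13. It was close to that with all 6 libraries, which follows from how the 5 members were chosen and tests nothing. Their transcript GC content ran from 49.4% to 54.8%. The GC bins over this range had median departures of -0.40, -0.17 and 0.04. After the GC and length correction with all 6 libraries the change was -0.39 for NXF1, -0.175 for RAE1, -0.02 for NUP188 and 0.06 for SEC13. Transcript length enters this correction too, at 5689 nt for NUP188 and 1472.5 nt for NXF1, whose GC contents were 52.5% and 52.6%. The parts of GC content and of length were not separated.

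The other genes of nuclear transport and the nuclear envelope, 80 genes in 8 lists of which 75 were tested, gave 3 that rose and 3 that fell with all 6 libraries (limma, adjusted over all genes tested). Over all genes tested 8.13% rose and 5.92% fell. THOC6, a subunit of the THO complex that loads export factors on nascent mRNA, rose to 42.7 ± 8.13 FPKM in siDUB1 cells, against 18.6 ± 0.711 FPKM in siControl cells (SD, n = 3 each; log2 change 1.14, SE 0.14, limma adjusted p = 0.00762). DDX39B (UAP56), the helicase that hands mRNA to the export machinery, rose to 324 ± 54.2 FPKM, against 224 ± 9.11 FPKM in siControl cells (log2 change 0.52, SE 0.13, limma adjusted p = 0.0465). It shares close sequence with DDX39A, which went the other way. DDX39A changed by -0.27 with all 6 libraries, where it was not called. Without siDUB1 replicate 3 it was called lower (-0.40, limma adjusted p = 9.72e-05). How reads were shared between the 2 genes is not known here. SNUPN (snurportin), the import adaptor of spliceosomal snRNPs, rose to 12.2 ± 1.25 FPKM, against 7.09 ± 0.112 FPKM in siControl cells (log2 change 0.70, SE 0.12, limma adjusted p = 0.0163).

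NXT1, the partner protein of NXF1, fell to 35.2 ± 1.81 FPKM in siDUB1 cells, against 47.7 ± 1.84 FPKM in siControl cells (SD, n = 3 each; log2 change -0.43, SE 0.08, limma adjusted p = 0.0249). ALYREF, the adaptor that brings mRNA to NXF1, fell to 151 ± 13.5 FPKM, against 194 ± 1.97 FPKM in siControl cells (log2 change -0.37, SE 0.09, limma adjusted p = 0.0472). TOR1A, a chaperone of the envelope lumen, fell to 26.5 ± 2.34 FPKM, against 35.3 ± 0.219 FPKM in siControl cells (log2 change -0.41, SE 0.10, limma adjusted p = 0.0403). Both parts of the NXF1-NXT1 carrier were thus lower in all 3 siDUB1 libraries, and siDUB1 replicate 3 lay within 0.1 log2 units of the mean of the other 2 for both. None of these 6 calls outlasted the loss of a siControl library, when the limma adjusted p was 0.0543 to 0.0626 for THOC6, 0.098 to 0.103 for SNUPN, 0.156 to 0.182 for DDX39B, 0.106 to 0.141 for NXT1, 0.176 to 0.178 for ALYREF and 0.158 to 0.172 for TOR1A. DDX39B, NXT1, ALYREF and TOR1A also lost their call with size factors. After the GC correction with all 6 libraries DDX39B (0.46, limma adjusted p = 0.0516) and TOR1A (-0.265, limma adjusted p = 0.0672) were not called, and the other 4 were. The direction of all 6 genes was kept in each of the 15 alternatives run.

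In the remaining lists no gene passed with 6 libraries. The gene with the smallest p was NUP42 among other nucleoporins (log2 change -0.50, limma adjusted p = 0.110), KPNA2 among the importin alphas, which are adaptors between cargo and KPNB1 (-0.48, limma adjusted p = 0.153), and XPO4 among other exportins (-0.61, limma adjusted p = 0.0771). In the Ran cycle it was RCC1, the exchange factor that charges Ran with GTP (-0.30, limma adjusted p = 0.0579), and among SUMO genes at the pore the protease gene SENP1 (-0.56, limma adjusted p = 0.183). Without siDUB1 replicate 3, 16 of the 75 were called higher and 26 lower, shares of 21.3% and 34.7% where 31.7% and 25.6% of all genes tested were called. In that fit 4 of 6 importin alphas fell, KPNA1, KPNA2, KPNA3 and KPNA4, and KPNA6 rose. With the GC correction added, 3 fell and KPNA4 did not pass (-0.085, limma adjusted p = 0.233). With that correction and all 6 libraries, 2 fell, KPNA1 and KPNA2. KPNA6 rose in both of these fits. TNPO1 and IPO7 are import receptors of the KPNB1 family named here after their values were seen. They fell the most of the 75 in the uncorrected fit without siDUB1 replicate 3, by 0.71 and 0.67 on the log2 scale (limma adjusted p = 2.98e-06 and 4.32e-07). With all 6 libraries their limma adjusted p was 0.0821 and 0.0882.

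**Figure D4:**
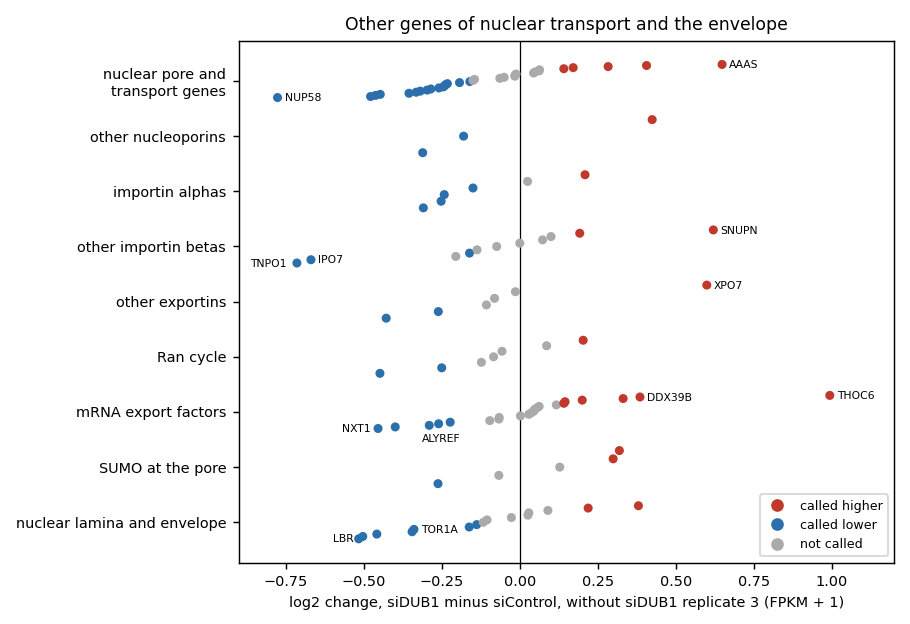
Log2 change of the tested members and of the 8 lists of other genes, siDUB1 minus siControl, on the log2(FPKM + 1) scale without siDUB1 replicate 3, coloured by the limma call. THOC6 lies farthest right and NUP58 farthest left of the genes shown.

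Promoter sequences, 250 bases before to 50 bases after a start site of each gene from RefSeq (GRCh38.p14), were at hand for 29 of the 33 members. The start site used is not always the outer end of the gene, and the windows of NUP35, RAE1 and XPO1 lie wholly inside it. Those of NUP160 and NUP98 cross the outer end, but with the start site inside the gene. NUP160, on the minus strand, has its outer end at 47848544. The 100 bases before its start site, chr11:47848351-47848450, therefore lie wholly inside the gene, as does the CCGGAAG match in them. For NUP35, which counts below among those with CCGGAAG, the window is chr2:183124193-183124492, while the gene begins at 183117514. Of the motifs searched on both strands, the core of the ETS family site, CCGGAAG, was in 12 of these 29 promoters (41.4%), against 14.2% of 15843 protein-coding promoters. GATGGCGG, a YY1 core, was in 13.8% of the members and 3.38% of all promoters, while CCAAT, the NF-Y box, was in 37.9% of the members and 36.4% of all. The other words searched were TGCGCATGC (3.45% of the members, 2.09% of all), TTTCCCGC (0% and 2.18%), TTTGGCGC (3.45% and 0.89%) and CACGTG (6.9% and 8.88%). The 15843 promoters include genes not tested here and were not matched to the members for level or GC content. Whether the shares differ from those of like genes was not tested. A match is a run of letters and not a site shown to be bound. CCGGAAG was in 4 of the 14 members with a promoter that were called lower without siDUB1 replicate 3 and in 8 of the other 15. The 100 bases before the start are shown for 3 members with a match and for AAAS and NXF1, the 2 members called with all 6 libraries, whose stretches hold none, with the match in capitals (CCGGAAG, or CTTCCGG where it lies on the other strand). They lie at chr13:25301525-25301624 for NUP58 and chr22:45163825-45163924 for NUP50, both on the plus strand, and at chr11:47848351-47848450 for NUP160, chr12:53321611-53321710 for AAAS and chr11:62805441-62805540 for NXF1, these on the minus strand.
NUP58: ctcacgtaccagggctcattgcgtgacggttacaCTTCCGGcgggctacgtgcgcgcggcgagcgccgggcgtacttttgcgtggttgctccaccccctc
NUP50: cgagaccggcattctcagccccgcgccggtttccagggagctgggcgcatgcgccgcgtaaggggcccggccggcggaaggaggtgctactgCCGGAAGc
NUP160: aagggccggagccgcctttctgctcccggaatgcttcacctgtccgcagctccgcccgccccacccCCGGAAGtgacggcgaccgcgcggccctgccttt
AAAS: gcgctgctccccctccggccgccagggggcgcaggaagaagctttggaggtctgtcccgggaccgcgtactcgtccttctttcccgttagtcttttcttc
NXF1: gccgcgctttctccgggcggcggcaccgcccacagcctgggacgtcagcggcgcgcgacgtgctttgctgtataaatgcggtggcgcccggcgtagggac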

How the data were processed

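Total RNA of AGS cells was sequenced on the BGISEQ-500, per the labels' protocols. The deposited values are FPKM per NCBI Gene ID with 2 decimals, per the file headers, and the build is GRCh38, per the submitters' processing notes. Neither the aligner, the counter, the annotation, the strand use nor the depth is given in the sources used here. FPKM is relative, so abundant genes in one library lower all others. Gene IDs were matched to symbols through RefSeq, and GC content and length came from GENCODE transcripts, for 10907 tested genes.

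Genes with at least 1 FPKM in at least 3 libraries (10994 genes) were compared on log2(FPKM + 1), which understates changes of low genes, with limma 3.58.1 in R 4.3.3 (eBayes with trend, two-sided, Benjamini-Hochberg over all genes tested, threshold 0.05). The fit was tested on simulated data with independent noise for each gene. These data held no shift of a whole library with GC content, so they do not test the fit for a library like siDUB1 replicate 3. An exact permutation test of 3 against 3 cannot go below p = 0.1. The GC and length correction subtracts from each library a natural spline (4 degrees of freedom) of each. Alternatives were another pseudocount, filter or scaling, the replicate block, this correction and each library left out.

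Members, lists and tests were chosen with earlier results of these data known. Values in every library are given for the member of each role class with the smallest p or largest change in either fit. SEC13, NUP188, RAE1, GLE1, NDC1, POM121 and KPNB1 were added after their values were seen. Genes of the other lists were named if called (at most 2 each way), or else by smallest p.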

Additional observations from a re-analysis of the deposited data

How the results depend on the processing

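The number of members called was 2 with all 6 libraries (6.25%, against 14.1% of all genes tested). It was also 2 with a pseudocount of 0.1 and with a stricter filter (6.25%, against 12.7% and 14.6% of all genes). Size factors gave 0 (0%, against 12.9%), quantile scaling 7 (21.9%, against 23.2%) and no filter 1 (3.03%, against 7.84%). The GC and length correction gave 8 (25.0%, against 31.9%), and 19 without siDUB1 replicate 3 (59.4%, against 58.4%). With 1 library left out it was 0 to 21 (0% to 65.6%, against 1.14% to 57.3%), with 21 reached without siDUB1 replicate 3. Without that library it was 21 (65.6% of members, against 57.3% of all genes tested), and 15 to 20 when a further library was left out (46.9% to 62.5%, against 43.2% to 57.5% of all genes tested). Of the 75 other transport genes tested, 6 were called with 6 libraries, 3 with size factors, 14 with quantile scaling and 19 with the correction. It was 43 with the correction and without siDUB1 replicate 3, and 0 to 42 with 1 library left out. The shares of all genes called in these fits are those given above for the members. All genes called, 1545, were 2554 with quantile scaling, 3481 with the correction and 125 to 6299 with 1 library left out. USP36 lost its call with a pseudocount of 0.1 (log2 change -1.03) and with no filter (-0.87), and its change ran from -1.01 to -0.68 with 1 library left out. The members' median change stayed between -0.40 and -0.11 and that of USP36 stayed below 0 under the alternatives run, while 10 single members changed sign in at least 1 of the 8 scalings and library choices compared above.

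The labels number the replicates 1 to 3 in each group and do not say whether the numbers pair libraries. Same-numbered libraries deviated from their group means with correlations of 0.254, -0.491 and -0.227. With each siControl library, siDUB1 replicates 1 and 2 gave similar correlations and siDUB1 replicate 3 the opposite sign. The check therefore mostly follows siDUB1 replicate 3 and cannot decide whether the numbers pair libraries. With the replicate block, 0 members, 0 other transport genes and 179 of all genes were called, and USP36 was not (-0.87). With the block and the correction together, 5 members, 12 other transport genes and 2399 of all genes were called, and 13 members without siDUB1 replicate 3 (40.6%, against 49.2% of all genes in that fit).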

Other observations

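Genes of the nuclear lamina and envelope, the surroundings of the pore, were among the lists above and gave 15 tested genes. BANF1, which bridges chromatin and the envelope, averaged 475 ± 99.1 FPKM in siDUB1 cells and 321 ± 13.3 FPKM in siControl cells (SD, n = 3 each; limma adjusted p = 0.0621 with 6 libraries). LBR, the lamin B receptor, averaged 29.7 ± 15.6 FPKM in siDUB1 cells and 55.8 ± 5.30 FPKM in siControl cells (limma adjusted p = 0.148). TOR1AIP1, the activator of TOR1A in the inner membrane, averaged 19.3 ± 7.36 FPKM in siDUB1 cells and 32.7 ± 1.09 FPKM in siControl cells (limma adjusted p = 0.108). Without siDUB1 replicate 3, BANF1 rose by 0.38, LBR fell by 0.52 and TOR1AIP1 fell by 0.46 on the log2 scale (limma adjusted p = 7.45e-05, 8.16e-05 and 1.95e-05). LMNA, the gene of the A-type lamins, differed by 0.09 in that fit and was not called. These 4 genes were named after their values were seen.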
